A study of Mus musculus with 8 samples.

Results

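The vascular endothelial growth factor (VEGF) family was described in 4 mouse models of endometrial cancer through 9 genes: the ligands Vegfa, Vegfb, Vegfc and Pgf, the receptor tyrosine kinases Kdr, Flt1 and Flt4, and the co-receptors Nrp1 and Nrp2. The genes were chosen by symbol, and 9 of the 24419 gene symbols in the count table were members. Bulk RNA of 8 libraries was sequenced, 2 for each of the models TPM, TPMCa, TPMR1 and TPK. The tumors were grown in nude mice from uterus organoids of mice that carry Cas9 and EGFP under the CAG promoter, so that host cells and grafted cells were both mouse cells and their transcripts were counted together. TPM organoids carried an sgRNA against Trp53 and overexpressed Myc. TPMCa organoids carried in addition a mutant Pik3ca cDNA, and TPMR1 organoids an sgRNA against Pik3r1. TPK organoids carried the Trp53 sgRNA and another oncogene in place of Myc. Further edits of these models are not named here. The sample labels call the material organoids, whereas the study's methods describe tumor tissue about 2 months after transplantation, with replicates from separate mice. The study tested the VEGF receptor inhibitor nintedanib on cultured tumor organoids of the 4 models, and a salt of it on subcutaneous TPMR1 tumors in mice. Such material differs from the tumor tissue that its methods describe for the RNA. It also reported that genes higher in TPMCa and TPMR1 than in TPM overlapped better with a VEGF pathway set than lower ones. The comparisons below ask where the ligands and receptors were transcribed more or less.

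VEGF ligands are secreted proteins that act mainly on endothelial cells. VEGF-A binds both KDR (VEGFR2), the main signaling receptor of blood vessel growth, and FLT1 (VEGFR1), which holds the ligand more tightly and signals weakly. VEGF-B and placental growth factor (encoded by Pgf) bind FLT1, and VEGF-C binds FLT4 (VEGFR3), the receptor of lymphatic vessels. Neuropilins bind both VEGFs and class 3 semaphorins and help the receptor kinases. Transcription of Vegfa rises when oxygen is low, through hypoxia-inducible factors.

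Total counts lay between 15748396 and 26943611 per library, and a count of 3, taken as the floor, equaled between 0.116 and 0.198 CPM (reads of a gene scaled to the depth of its library), a limit for counting error only. All 9 members were among the 15875 genes with enough counts to be tested, and every member was above the floor in every library. Cell type markers differed between the models. The 6 general epithelial genes summed to between 2941 and 5498 CPM in the TPM and between 3236 and 4963 CPM in the TPK libraries, but to between 23.7 and 73.3 CPM in TPMCa and between 6.47 and 27.4 CPM in TPMR1. The epithelial adhesion genes Epcam and Cdh1 were at 352 ± 56.1 and 742 ± 62.7 CPM (SD, n = 2) in TPM. They were at 4.06 ± 1.33 and 6.15 ± 1.15 CPM in TPMCa and at 0.601 ± 0.2998 and 0.386 ± 0.162 CPM in TPMR1 (SD, n = 2). The study described TPMCa and TPMR1 tumors as adenocarcinoma with glandular structures from stained sections, a measure other than RNA of bulk tissue. How the low epithelial transcripts of these libraries relate to those sections was not tested. Squamous epithelial genes summed to between 4018 and 16148 CPM in TPM and between 12649 and 19766 CPM in TPK, but to at most 5.95 CPM in TPMCa and 11.5 CPM in TPMR1. In TPMCa against TPM edgeR called 4 of 6 general and 4 of 5 squamous epithelial genes lower at an adjusted p under 0.05, and in TPMR1 6 of 6 and 4 of 5. Steroidogenic genes summed to between 446 and 5078 CPM in TPMR1 and to at most 22.7 CPM elsewhere. Within TPMR1, 2701 genes were over 4-fold apart between the libraries, against 749 to 1293 within the other models. The plot of marker genes shows these ranges.

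**Figure D1:**
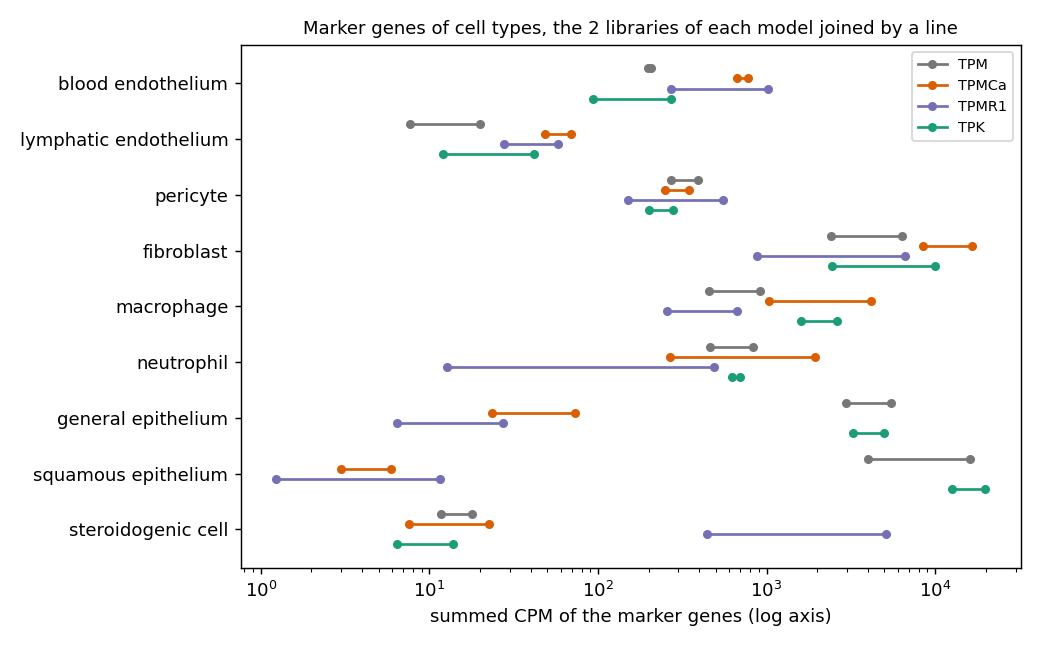
Summed CPM of marker genes of 9 cell types on a log axis, with 1 point per library and the 2 libraries of each model joined by a line. Blood endothelial genes lay between 197 and 206 CPM in TPM and between 668 and 771 CPM in TPMCa, while general and squamous epithelial genes were far lower in TPMCa and TPMR1 than in TPM and TPK.

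Vegfa (ENSMUSG00000023951.17) lies on chromosome 17 of GRCm38 from 46016993 to 46032369 on the minus strand. It was at 210 and 279 CPM in the TPM libraries, 652 and 298 CPM in TPMCa, 566 and 548 CPM in TPMR1 and 193 and 137 CPM in TPK, with replicate 1 given first here and below. All 4 TPMCa and TPMR1 libraries lay above all 4 TPM and TPK libraries, although TPMCa replicate 2 exceeded the higher TPM library by little. The models ranked TPMR1, TPMCa, TPM and TPK, and TPMR1 and TPMCa overlapped.

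Vegfb (ENSMUSG00000024962.13) lies on chromosome 19 from 6982473 to 6987651 on the minus strand. It was at 28.2 and 35.6 CPM in TPM, 38.3 and 38.5 CPM in TPMCa, 67.02 and 60.1 CPM in TPMR1 and 25.7 and 18.3 CPM in TPK. No neighboring models overlapped in the order TPMR1, TPMCa, TPM and TPK, and the replicates of each model lay close together. Its ratio between the highest and the lowest model mean was the smallest of the 9 members.

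Pgf (ENSMUSG00000004791.7) lies on chromosome 12 from 85166635 to 85177790 on the minus strand. It was at 3.19 and 5.21 CPM in TPM, 46.9 and 11.6 CPM in TPMCa, 13.9 and 48.5 CPM in TPMR1 and 2.63 and 0.593 CPM in TPK. The TPMCa and TPMR1 libraries overlapped and were all above the TPM libraries, which were above the TPK libraries. Only 9 reads were behind the lowest value, that of TPK replicate 2.

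Vegfc (ENSMUSG00000031520.6), on chromosome 8 from 54077606 to 54187096 on the plus strand, was at few counts. Its level was 2.29 and 1.03 CPM in TPM, 4.69 and 19.4 CPM in TPMCa, 2.32 and 4.89 CPM in TPMR1 and 2.29 and 1.85 CPM in TPK. TPMCa replicate 2 stood above the other 7 libraries. TPMR1 replicate 1 exceeded the TPM libraries by less than 0.1 CPM, and TPM and TPK overlapped.

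A ligand of FLT4 that is no member, Vegfd, is listed in the count table under its older symbol Figf and was looked up after the members' values had been seen. It was at 8.79 and 6.12 CPM in TPM, 17.1 and 70.4 CPM in TPMCa, 445 and 15.2 CPM in TPMR1 and 20.7 and 6.13 CPM in TPK. The value of TPMR1 replicate 1 was 29.2 times that of TPMR1 replicate 2, and TPMR1 was not called against TPM by edgeR (adjusted p = 0.129, unadjusted p = 0.0185, log2 fold change 4.95) but was by DESeq2 (adjusted p = 0.00117).

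Kdr (ENSMUSG00000062960.10) lies on chromosome 5 from 75932827 to 75978458 on the minus strand. It was at 14.7 and 16.6 CPM in TPM, 37.5 and 88.1 CPM in TPMCa, 21.2 and 84.99 CPM in TPMR1 and 16.9 and 7.12 CPM in TPK. TPMCa and TPMR1 overlapped, as did TPM and TPK, and the former pair lay above the latter.

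Flt1 (ENSMUSG00000029648.13) lies on the same chromosome from 147561604 to 147726011 on the minus strand. It was at 13.7 and 15.7 CPM in TPM, 149 and 99.5 CPM in TPMCa, 29.5 and 186 CPM in TPMR1 and 8.17 and 6.72 CPM in TPK. TPMR1 replicate 2 was the highest and TPMR1 replicate 1 the lowest of the 4 TPMCa and TPMR1 libraries, and the TPK libraries lay below those of TPM. Counts per gene do not separate the membrane receptor from its soluble form, which traps ligand.

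Flt4 (ENSMUSG00000020357.3), on chromosome 11 from 49609263 to 49652739 on the plus strand, was at 9.33 and 11.96 CPM in TPM, 20.3 and 39.2 CPM in TPMCa, 22.1 and 26.7 CPM in TPMR1 and 8.06 and 5.87 CPM in TPK. The TPMR1 libraries lay within the range of the TPMCa libraries. Those of TPM lay above those of TPK.

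Nrp2 (ENSMUSG00000025969.15) lies on chromosome 1 from 62703285 to 62818695 on the plus strand. It was at 45.4 and 42.96 CPM in TPM, 178 and 106 CPM in TPMCa, 160 and 93.3 CPM in TPMR1 and 39.3 and 36.7 CPM in TPK. The replicates of TPM and of TPK lay close together, and the lowest of the TPMCa and TPMR1 libraries was well above the highest of these 4.

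Nrp1 (ENSMUSG00000025810.9), on chromosome 8 from 128358604 to 128503363 on the plus strand, was at 40.2 and 18.8 CPM in TPM, 28.4 and 139 CPM in TPMCa, 103 and 92.2 CPM in TPMR1 and 54.3 and 31.3 CPM in TPK. It was the 1 member whose TPMCa and TPM libraries overlapped, since TPMCa replicate 1 was below TPM replicate 1. TPMR1 lay above both TPM and TPK.

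**Figure D2:**
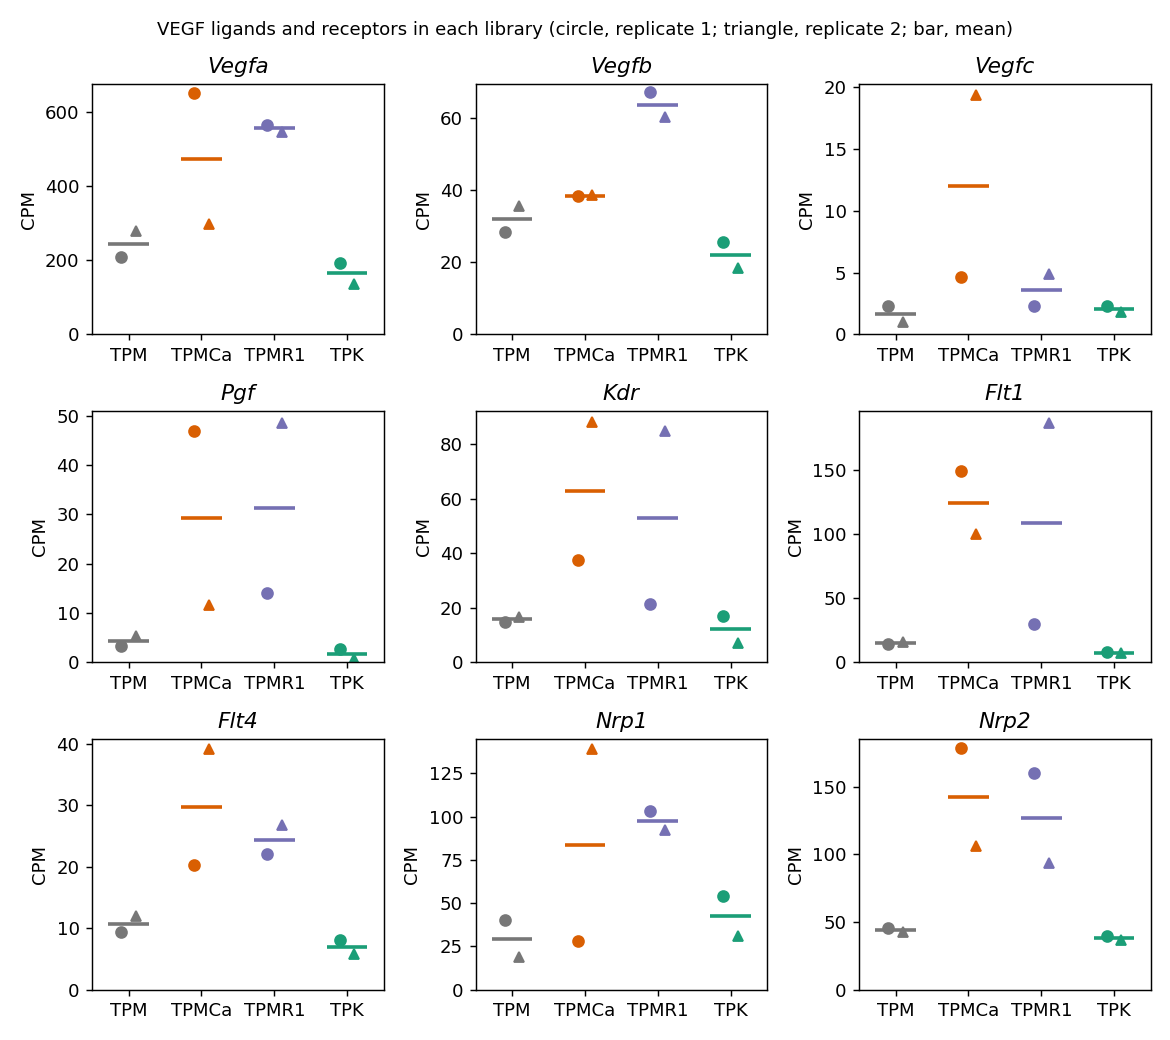
CPM of the 9 members (linear axes from 0) in each library, with the mean of each model as a bar. In all panels except Nrp1 the 4 TPMCa and TPMR1 libraries lay above the 4 TPM and TPK libraries, as for Flt1, at 29.5 to 186 CPM against 6.72 to 15.7 CPM.

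Levels of different genes were compared per kilobase of exon, with lengths from the GENCODE M21 annotation between 1.605 kb for Vegfb and 13.504 kb for Flt1. Vegfa was the most abundant member in every model, at 57.1 ± 11.4 CPM per kb in TPM, 111 ± 58.5 in TPMCa, 130.1 ± 2.93 in TPMR1 and 38.5 ± 9.14 in TPK (SD, n = 2). Vegfb was the next in every model, between 13.7 ± 3.23 CPM per kb in TPK and 39.6 ± 3.06 in TPMR1. The receptors were lower per kilobase than these ligands. Pgf ranked 3 of 9 in TPMR1 at 10.8 ± 8.42 CPM per kb but 8 of 9 in TPK at 0.555 ± 0.496. Flt1 ranked 5 of 9 in TPMCa at 9.2 ± 2.59 CPM per kb and last in TPK at 0.552 ± 0.0758, whereas Kdr ranked 5 in TPM and TPK and 7 in TPMCa and TPMR1.

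Differences among the 4 models were tested in 1 edgeR quasi-likelihood fit of all 8 libraries, with p-values adjusted by the Benjamini-Hochberg method over the 15875 genes. Of the 9 members, 1 differed among the models at an adjusted p under 0.05, Nrp2 (adjusted p = 0.0415 from edgeR), against a background of 7.32% of all genes. Flt1 came next (adjusted p = 0.0522 from edgeR), and Nrp1 was the only member with an unadjusted p above 0.05. With the likelihood ratio test of DESeq2, 8 members passed, all but Nrp1, where DESeq2 passed 4784 genes in all and edgeR 1162. The edgeR count was 0 without either TPM, either TPK or either TPMCa library and 2 without either TPMR1 library.

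TPMCa was compared with TPM to ask what accompanied the mutant Pik3ca cDNA. All 9 members had a higher mean in TPMCa, with a median log2 fold change of 1.69 against -0.01 over all genes tested, of which 49.3% were higher. None of the 9 passed an adjusted p under 0.05 from edgeR, with a background of 0.466% of genes called higher. An unadjusted p under 0.05 was reached by 6 members and by 3506 of the 15875 genes in either direction. DESeq2 called 5 members and 2380 genes. A laxer threshold, called the unadjusted threshold here, took edgeR's p under 0.05 before adjustment with a log2 fold change beyond 1, and there 6 of 9 members were higher, against 7.28% of all genes. With DESeq2's p it was also 6. For 8 members no TPMCa library overlapped with a TPM library, against 29.1% of all genes that were higher without overlap.

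Among the receptors in this comparison, Flt1 had the largest difference, with a log2 fold change of 3.08 ± 0.80 (SE, adjusted p = 0.0903 from edgeR), or 8.45-fold. Kdr was at 2.002 ± 0.77 (SE, adjusted p = 0.197 from edgeR) and Flt4 at 1.48 ± 0.44 (SE, adjusted p = 0.122 from edgeR). Nrp2 came closest to the threshold at 1.69 ± 0.37 (SE, adjusted p = 0.0615 from edgeR). Of the ligands, Vegfc was at 2.85 ± 0.89 (SE, adjusted p = 0.133 from edgeR) and Pgf at 2.80 ± 1.02 (SE, adjusted p = 0.1798 from edgeR). Both depended on the TPMCa library, with 3.55 without replicate 1 and 1.497 without replicate 2 for Vegfc, and 1.48 and 3.48 for Pgf. Kdr was at 2.51 and 1.26 in the same way. Vegfa, Vegfb and Nrp1 were below the unadjusted threshold. Without either TPM library, 3 members rather than 6 were at the unadjusted threshold, and without either TPMR1 library, which shares the fit, edgeR called 2, Flt1 and Nrp2.

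TPMR1 was compared with TPM to ask what accompanied the Pik3r1 sgRNA. Again all 9 members had a higher mean, with a median log2 fold change of 1.52 against 0.03 over all genes, of which 51.6% were higher. None passed an adjusted p under 0.05 from edgeR, with a background of 1.08% called higher. An unadjusted p under 0.05 was reached by 6 members and by 3671 of the 15875 genes in either direction. DESeq2 called 4 members and 2880 genes. Of the 9 members, 5 were higher at the unadjusted threshold from edgeR, against 7.53% of all genes, and 7 with DESeq2, which added Kdr and Nrp1. All 9 were higher without overlap between the libraries, against 24.5% of all genes. This comparison shares its TPM libraries with the preceding one, so the directions are not independent of each other.

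Pgf had the largest log2 fold change of TPMR1 against TPM, 2.89 ± 1.03 (SE, adjusted p = 0.157 from edgeR), followed by Flt1 at 2.88 ± 0.79 (SE, adjusted p = 0.0904 from edgeR). Nrp2 again came closest to the threshold, at 1.52 ± 0.37 (SE, adjusted p = 0.0639 from edgeR). Flt4 was at 1.20 ± 0.44 (SE, adjusted p = 0.168 from edgeR) and Vegfa at 1.19 ± 0.42 (SE, adjusted p = 0.157 from edgeR). The values depended on the TPMR1 library. Pgf was at 3.53 without replicate 1 and 1.73 without replicate 2, and Flt1 had a log2 fold change of 3.67 without replicate 1 (adjusted p = 0.00906 from edgeR) and 1.01 without replicate 2 (adjusted p = 0.116 from edgeR). Without either TPM library, or without TPMR1 replicate 2, only 2 to 3 members were at the unadjusted threshold.

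TPMR1 and TPMCa, which carry changes in the regulatory and the catalytic subunit of the same kinase, respectively, were also compared directly. None of the 9 members passed an adjusted p under 0.05 from edgeR or from DESeq2, with a background of 0% of genes in edgeR. An unadjusted p under 0.05 was reached by 1 member and by 1867 of the 15875 genes. At the unadjusted threshold edgeR had 0 members, against 10.5% of all genes, and DESeq2 had 1, Vegfc, which was lower in TPMR1. Vegfb was the 1 member with an unadjusted p under 0.05 in edgeR and the 1 without overlap, at 63.6 ± 4.91 CPM in TPMR1 and 38.4 ± 0.183 CPM in TPMCa (SD, n = 2, adjusted p = 0.412 from edgeR), and the other 8 overlapped.

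TPK was compared with TPM, and 7 of 9 members had a lower and 2, Vegfc and Nrp1, a higher mean in TPK. Neither edgeR nor DESeq2 called a member at an adjusted p under 0.05, with a background of 0% of all genes in edgeR, and 0 members had an unadjusted p under 0.05, against 1138 genes. There were 0 members past the unadjusted threshold with edgeR or DESeq2, against 5.28% of all genes with edgeR. The smallest unadjusted p was 0.102, for Vegfb in the edgeR fit.

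**Figure D3:**
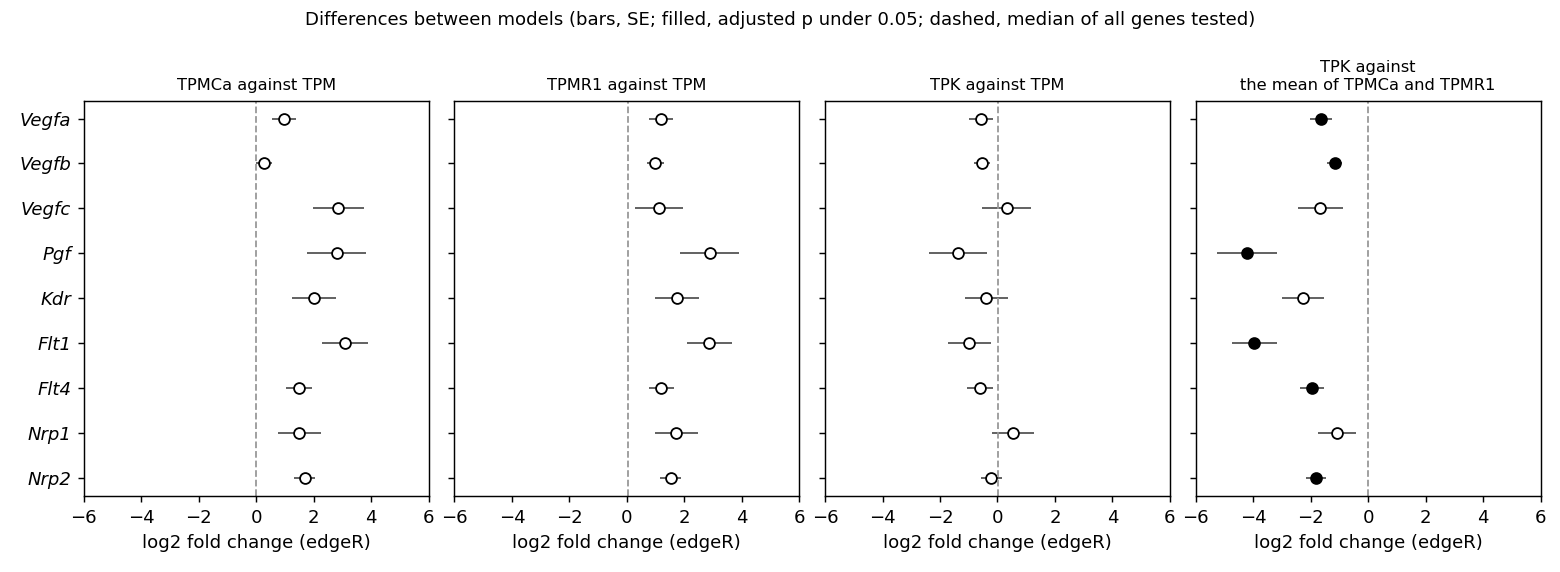
Log2 fold changes from edgeR of the 9 members in 4 comparisons, with bars of 1 SE, filled points for an adjusted p under 0.05 and a dashed line at the median of all genes tested. All 9 members lay right of the line in TPMCa and TPMR1 against TPM, and 6 were called lower in TPK against the mean of TPMCa and TPMR1.

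TPM was set against the mean of TPMCa and TPMR1, a comparison that uses the same libraries as those above. All 9 members were lower in TPM, with a median log2 fold change of -1.62 against -0.02 over all genes, and 1 was called lower at an adjusted p under 0.05 from edgeR, against a background of 1.45%. This was Nrp2, which was lower by -1.60 ± 0.33 on the log2 scale (SE, adjusted p = 0.0333 from edgeR). Flt1 was at -2.98 ± 0.75 (SE, adjusted p = 0.0573 from edgeR), Pgf at -2.84 ± 0.96 (SE, adjusted p = 0.1304 from edgeR) and Kdr at -1.88 ± 0.71 (SE, adjusted p = 0.164 from edgeR). Past the unadjusted threshold 7 members were lower with edgeR, against 6.54% of all genes, and 8 with DESeq2, and 8 were lower without overlap, against 15.5%. The other members at that threshold were Vegfa at -1.07 ± 0.38, Vegfc at -1.99 ± 0.80 and Flt4 at -1.34 ± 0.40 on the log2 scale (SE, adjusted p = 0.142, 0.187 and 0.0945 from edgeR). The call of Nrp2 was lost without either TPM library, either TPK library or TPMCa replicate 1 (adjusted p = 0.0759 to 0.211 from edgeR), and with only the models compared in the fit (adjusted p = 0.0699 from edgeR).

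TPK was set against the same mean of TPMCa and TPMR1, where 6 of the 9 members were called lower at an adjusted p under 0.05 from edgeR, against a background of 4.06%. All 9 had a lower mean in TPK, with a median log2 fold change of -1.82 against -0.002 over all genes. Of the ligands, Vegfa fell by 1.64 ± 0.39 on the log2 scale (SE, adjusted p = 0.0381 from edgeR), Vegfb by 1.17 ± 0.26 (SE, adjusted p = 0.0308 from edgeR) and Pgf by 4.21 ± 1.05 (SE, adjusted p = 0.0433 from edgeR). Of the receptors, Flt1 fell by 3.96 ± 0.80 (SE, adjusted p = 0.0225 from edgeR), Flt4 by 1.95 ± 0.42 (SE, adjusted p = 0.02698 from edgeR) and Nrp2 by 1.82 ± 0.34 (SE, adjusted p = 0.0181 from edgeR). Kdr was at -2.27 ± 0.73 on the same scale (SE, adjusted p = 0.0836 from edgeR) and passed with DESeq2, and Vegfc and Nrp1 passed neither tool. At the unadjusted threshold 7 members were lower with edgeR, against 9.71% of all genes, and 8 with DESeq2, and 8 were lower without overlap, against 18.5%. The number called was 0 without either TPK library, 2 without either TPMCa library, 2 without TPM replicate 1, 1 without TPM replicate 2 and 2 with only the models compared in the fit.

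Endothelial genes were measured beside the receptors, since most VEGF receptors are transcribed in endothelial cells and, in bulk tissue, fewer cells of a type and less RNA per cell cannot be told apart. The summed level of 12 blood endothelial genes was 197 to 206 CPM in TPM, 668 to 771 CPM in TPMCa, 273 to 1019 CPM in TPMR1 and 93.6 to 271 CPM in TPK. Cdh5, the cadherin of endothelial junctions, was at 34.1 ± 6.38 CPM in TPM, 176 ± 14.3 in TPMCa, 156 ± 140.2 in TPMR1 and 29.2 ± 22.2 in TPK (SD, n = 2). Of the list, 11 of 12 genes had a higher mean in TPMCa than in TPM their median log2 fold change being 1.84, and 10 of 12 in TPMR1 with a median of 1.65, while edgeR called 0 at an adjusted p under 0.05 in either, and DESeq2 called 2 and 5. Of the 12, 8 had an unadjusted p under 0.05 in TPMCa, all higher, and 6 in TPMR1, where 5 were higher and 1, Vwf (von Willebrand factor), was lower. In TPK against the mean of TPMCa and TPMR1, 11 of 12 had a lower mean, with a median of -1.67, and edgeR called 0 and DESeq2 8. There 9 had an unadjusted p under 0.05, of which 8 were lower and 1, Vwf, was higher. The medians of the 9 members, ligands included, were 1.69, 1.52 and -1.82 in the same comparisons. Single members lay between 0.27 and 3.08 in TPMCa against TPM. The part of endothelial cells in the members' differences was not tested.

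Each receptor was also expressed relative to the mean log2 CPM of the 12 endothelial genes in the same library. Kdr lay 0.22 ± 0.14 above that mean in TPM, 0.43 ± 0.77 in TPMCa, 0.71 ± 0.31 in TPMR1 and 0.09 ± 0.25 in TPK (log2 units, SD, n = 2). Flt1 lay 0.13 ± 0.15 above it in TPM, 1.51 ± 0.51 in TPMCa and 1.51 ± 0.78 in TPMR1, and was at -0.47 ± 0.93 in TPK (log2 units, SD, n = 2). The 4 TPMCa and TPMR1 libraries, at 0.96 to 2.06, did not overlap with the 4 others, at -1.12 to 0.24. An exact permutation test of the F statistic among the 4 models gave p = 0.0952 for Flt1, or 0.476 adjusted over the 5 receptors, where the smallest p that this design allows is 0.00952. For Kdr, Nrp1, Flt4 and Nrp2 the exact permutation p was 0.514, 0.524, 0.867 and 1. Flt4 lay between -0.59 and -0.09 in the model means and Nrp2 between 1.69 and 2.23. None of the 5 receptors passed after adjustment. The endothelial mean itself did not pass the same test either (exact permutation p = 0.248). With 2 libraries per model, the test therefore cannot show whether the receptors differed beyond the endothelial genes or followed them.

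**Figure D4:**
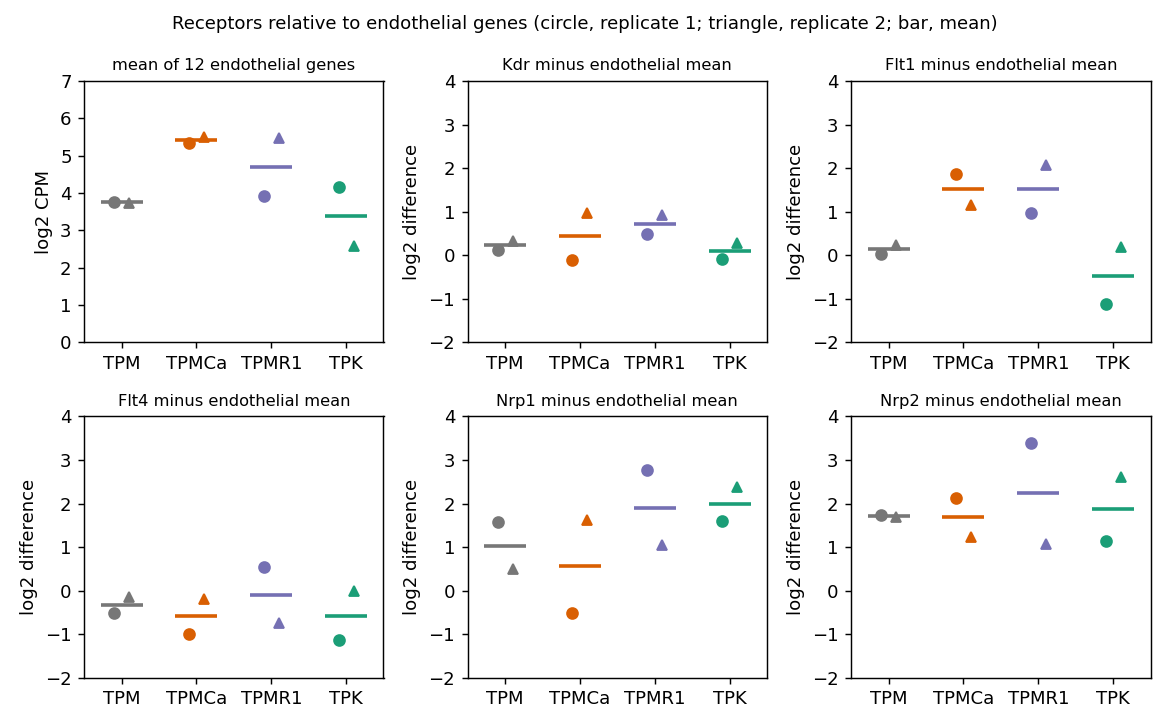
Mean log2 CPM of 12 endothelial genes, and log2 CPM of each receptor minus that mean, in each library, with the mean of each model as a bar. Relative to endothelial genes Flt1 lay at 0.96 to 2.06 in the TPMCa and TPMR1 libraries and at -1.12 to 0.24 in the others. All models overlapped for Nrp2 and Flt4. For Nrp1 the TPK libraries, at 1.59 and 2.39, lay above those of TPM, at 1.57 and 0.499, and the other pairs of models overlapped. For Kdr the TPMCa libraries, at -0.113 and 0.973, spanned those of all other models.

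The balance of the receptors of VEGF-A was compared as the difference of log2 CPM between Flt1 and Kdr, which removes differences in library size. It was -0.10 and -0.09 in TPM, 1.99 and 0.17 in TPMCa, 0.48 and 1.13 in TPMR1 and -1.03 and -0.08 in TPK. All 4 TPMCa and TPMR1 libraries lay above the 4 others, although TPMCa replicate 2 was close to them. An exact permutation test of F among the models gave p = 0.2.

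The bases before the start of Vegfa, Kdr and Flt1 are shown because these genes encode the central ligand and its kinase receptors. They are the 250 bases before the RefSeq start in GRCm38.p6, 5′ to 3′ on the strand of the gene. Capitals mark matches on either strand to the GC box GGGCGG, the TATA box TATAAA, the cAMP response element TGACGTCA and the core of the hypoxia response element ACGTG, none of which contains another.
Vegfa, chr17:46032378-46032627, minus strand: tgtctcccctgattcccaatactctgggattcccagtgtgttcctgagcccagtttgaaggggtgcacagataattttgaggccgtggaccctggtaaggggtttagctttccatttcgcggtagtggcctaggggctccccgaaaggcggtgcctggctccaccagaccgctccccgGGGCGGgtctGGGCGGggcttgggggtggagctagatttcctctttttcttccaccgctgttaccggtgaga
Kdr, chr5:75978456-75978705, minus strand: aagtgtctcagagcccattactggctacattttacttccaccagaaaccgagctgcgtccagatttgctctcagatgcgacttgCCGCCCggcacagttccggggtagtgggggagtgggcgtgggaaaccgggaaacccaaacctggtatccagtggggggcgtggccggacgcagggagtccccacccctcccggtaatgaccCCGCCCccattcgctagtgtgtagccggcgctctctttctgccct
Flt1, chr5:147726012-147726261, minus strand: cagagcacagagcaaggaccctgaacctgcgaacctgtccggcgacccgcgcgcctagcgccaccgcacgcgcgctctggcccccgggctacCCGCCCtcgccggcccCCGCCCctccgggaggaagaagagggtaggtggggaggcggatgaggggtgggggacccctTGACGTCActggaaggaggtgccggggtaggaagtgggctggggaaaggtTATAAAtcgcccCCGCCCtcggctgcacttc
The Flt1 window held a cAMP response element 81 to 74 bases before the start and a TATA box 31 to 26 bases before it, motifs that 1.55% and 12.4% of 32851 promoter windows of the same length held. Neither was matched in the other members' windows. A GC box was matched in windows of all 9 members, against 32.7% of all windows, and the hypoxia core in the window of 1 member, at a start inside the Vegfa gene, against 16.6%. These are matches of letters and say nothing of binding in these tumors.

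Genes that act with or downstream of the receptors were taken from fixed lists. The overlap that the study reported was with the BIOCARTA VEGF pathway set. These lists were not matched to that set, so the counts below do not test that overlap. Of 31 genes of VEGF receptor signaling, 14 had a higher and 17 a lower mean in TPMCa than in TPM, and their median log2 fold change was -0.09. In TPMR1 against TPM 16 had a higher and 15 a lower mean, with a median of 0.02. In each comparison edgeR called 1 of them lower at an adjusted p under 0.05, the kinase gene Src. Src was at 129 and 98.7 CPM in TPM, 24.1 and 16.1 CPM in TPMCa, 13.05 and 26.1 CPM in TPMR1 and 108 and 144 CPM in TPK. On the log2 scale Src fell by 2.50 ± 0.43 in TPMCa (SE, adjusted p = 0.0322 from edgeR) and by 2.54 ± 0.43 in TPMR1 (SE, adjusted p = 0.026 from edgeR), where the epithelial genes were also far lower. The call in TPMCa was lost without any 1 of the TPM, TPMCa or TPK libraries (adjusted p = 0.0775 to 0.164 from edgeR), and that in TPMR1 without any 1 of the TPM or TPK libraries (adjusted p = 0.0617 to 0.126 from edgeR). In TPK against the mean of TPMCa and TPMR1, 18 of the 31 were higher, with Src (2.67 ± 0.34, SE, adjusted p = 0.005 from edgeR) and the apoptosis gene Bad (1.25 ± 0.27, SE, adjusted p = 0.0265 from edgeR) called, the latter not without either TPK library (adjusted p = 0.133 and 0.174 from edgeR).

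Of 12 neuropilin partners, class 3 semaphorins and plexins, 6 had a higher mean in TPMCa and 7 in TPMR1 than in TPM. The plexin gene Plxnd1, which encodes a semaphorin receptor of endothelial cells, was called higher in both. It was at 64.2 and 54.97 CPM in TPM, 158 and 269 CPM in TPMCa, 343 and 308 CPM in TPMR1 and 113 and 137 CPM in TPK, with no overlap between models. It rose by 1.84 ± 0.32 on the log2 scale in TPMCa (SE, adjusted p = 0.035 from edgeR) and by 2.45 ± 0.33 in TPMR1 (SE, adjusted p = 0.0141 from edgeR). Leaving out any 1 TPM, TPMCa or TPK library ended the first call (adjusted p = 0.0718 to 0.197 from edgeR), and leaving out either TPM library the second (adjusted p = 0.0904 and 0.101 from edgeR).

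Of 12 hypoxia response genes, 11 had a higher mean in TPMCa than in TPM, their median log2 fold change being 1.05, and 7 in TPMR1, with a median of 0.69. Neither edgeR nor DESeq2 called any of them at an adjusted p under 0.05 in these comparisons, where 2 and 1 had an unadjusted p under 0.05. Ankrd37 was higher and Pfkfb4 lower in TPMCa at the unadjusted threshold, and Bnip3 was higher in TPMR1. In TPK against the mean of TPMCa and TPMR1, 11 of the 12 had a lower mean, with a median of -1.07, and edgeR called 0, DESeq2 2, with 2 at an unadjusted p under 0.05. The replicates of TPMCa differed, since the glucose transporter gene Slc2a1 was at 1257 and 292 CPM there, against 364 and 355 CPM in TPM. TPMCa replicate 1 was also the library with the most Vegfa. In TPMR1 Slc2a1 was at 220 and 415 CPM and Vegfa at 566 and 548 CPM. Slc2a1 does not stand for the list, of which 7 genes had a higher and 5 a lower mean in TPMR1 than in TPM. Bnip3 was at 546 and 224 CPM in TPMR1, against 107 and 128 CPM in TPM. The part of low oxygen in the level of Vegfa was not tested. Of 9 oxygen sensing genes, edgeR called 0 in TPMCa or TPMR1 against TPM, where 4 and 3 had an unadjusted p under 0.05 and DESeq2 called 1 and 2. In TPK against the mean of TPMCa and TPMR1, Epas1, which encodes HIF-2α, was higher by 1.51 ± 0.29 on the log2 scale (SE, adjusted p = 0.0193 from edgeR), at 204 and 174 CPM in TPK and 45.1 to 85.7 CPM in the others. Hif3a, which encodes an inhibitory family member, was lower by -4.47 ± 0.72 (SE, adjusted p = 0.0114 from edgeR). Its level was 0.286 and 0.330 CPM in TPK and 3.95 to 8.60 CPM in TPMCa and TPMR1. Only 5 reads were behind each TPK value, near the floor of 3, so the size of the Hif3a difference is uncertain. Without either TPK library neither gene was called (adjusted p between 0.0847 and 0.114 from edgeR).

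Markers of other cell types that the tumors could hold were measured in the same libraries. Of 6 pericyte genes, 5 had a higher mean in TPMCa and in TPMR1 than in TPM, and Abcc9, a channel subunit of pericytes, was called higher in TPMR1 (2.81 ± 0.53, SE, adjusted p = 0.033 from edgeR), but not without any 1 of the TPM or TPK libraries (adjusted p = 0.0692 to 0.218 from edgeR). The summed pericyte level overlapped between models, at 272 to 394 CPM in TPM, 250 to 349 CPM in TPMCa, 151 to 554 CPM in TPMR1 and 201 to 278 CPM in TPK. Most of this sum in TPM and TPK came from Notch3, the gene with a lower mean in TPMCa and TPMR1, so it hides the other 5. Notch3 was at 280 and 162 CPM in TPM, 57.9 and 39.2 CPM in TPMCa, 46.5 and 126 CPM in TPMR1 and 170 and 159 CPM in TPK. Of 5 lymphatic genes 4 were tested, and 3 had a higher mean in TPMCa and in TPMR1, with sums of 7.71 to 19.96 CPM in TPM, 48.3 to 69.7 CPM in TPMCa, 27.8 to 57.9 CPM in TPMR1 and 12.1 to 41.7 CPM in TPK. Prox1, a marker of lymphatic endothelium, was at 27.99 CPM in TPMR1 replicate 1 and at 2.39 CPM or less in the other libraries. The other lymphatic genes with counts, Lyve1, Reln and Mmrn1, were at 13.7, 9.45 and 6.78 CPM in TPMR1 replicate 1. Their highest values lay elsewhere, at 56.99 CPM in TPMCa replicate 2, 36.2 CPM in TPMCa replicate 1 and 8.24 CPM in TPM replicate 2, respectively. Macrophage genes summed to 1040 to 4172 CPM in TPMCa and 256 to 666 CPM in TPMR1, against 457 to 919 CPM in TPM and 1599 to 2633 CPM in TPK. Fibroblast genes summed to 8509 to 16595 CPM in TPMCa, above the 2407 to 6370 CPM of TPM, and to 876 to 6582 CPM in TPMR1. Neutrophil genes summed to 461 to 834 CPM in TPM, 268 to 1939 CPM in TPMCa, 12.7 to 489 CPM in TPMR1 and 626 to 698 CPM in TPK. Of 5 steroidogenic genes, Nr5a1 was called higher in TPMR1 than in TPM (adjusted p = 0.0234 from edgeR, and 0.0515 to 0.162 without either TPM library or TPK replicate 2), at 753 and 148 CPM against 0.181 and 0.4 CPM. The part of these cells in the members' levels was not tested.

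The members' levels over the 8 libraries were also compared with each other and with 10413 other genes by the Pearson correlation of log2 CPM, as a description in which the libraries share their model and cell makeup. Among members, Vegfa ran closest to Pgf (r = 0.951), Kdr to Flt4 (r = 0.919) and to Flt1 (r = 0.911), and Nrp1 had no correlation with another member above 0.698. The genes most like Vegfa were Slc16a3, a lactate exporter (r = 0.986), Nhp2l1 (r = 0.986) and Setd2 (r = 0.984). Those most like Vegfb were Phpt1 (r = 0.998), Pm20d2 (r = 0.980) and Ints7 (r = 0.975). For Vegfc they were Nup93, Sh2b3 and Pip4k2a (r = 0.976, 0.970 and 0.968), and for Pgf Naf1, Adarb1 and Cct6a (r = 0.992, 0.989 and 0.982).

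Kdr was most like Dzip1, Rad51ap1 and Nuf2 (r = 0.990, 0.989 and 0.986), and Flt1 most like Blm, Trp53i11 and Xpo1 (r = 0.992, 0.989 and 0.988). For Flt4 the genes were Mcm6, Diexf and Ldlrad3 (r = 0.979, 0.978 and 0.978). Nrp2 was most like Exosc10, Mthfd2 and Insig1 (r = 0.988, 0.983 and 0.982). Nrp1 had the lowest values, with Rbm12b1, Macf1 and Gins4 (r = 0.939, 0.930 and 0.925).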

How the data were processed

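RNA of 8 libraries was analyzed, with models and replicates taken from the sample labels. The columns headed TPMS were taken as the TPM samples, whose labels carry TPM. The counts are whole numbers of reads per gene symbol and were deposited by the authors, who aligned reads, already trimmed by the company that sequenced them, with STAR to mm10. The counter and annotation are not given in the sources used here, nor is the strand setting. A deposited table of counts normalized with DESeq2 was not used. Counts were scaled by the TMM method of edgeR 4.0.16 in R 4.3.3, low counts were removed by filterByExpr and 1 quasi-likelihood fit covered all 8 libraries, with a Benjamini-Hochberg adjusted p under 0.05 as the threshold. CPM values include the TMM factors, and log2 CPM used a prior count of 2. The SE of a log2 fold change was its size divided by the square root of F. DESeq2 1.42.0 was an alternative, and the study used it, for TPK or TPM against TPMCa and TPMR1 together, with a log2 fold change beyond 1 and p under 0.05 before adjustment. The unadjusted threshold in the text applies these limits to edgeR p-values in every comparison. Exact permutation tests used SciPy 1.17.1. Total counts per library, between 15748396 and 26943611, set the precision, with 2 libraries per model. Scripts were tested on simulated data.

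The members, lists and tests were chosen with earlier results of these data known. All 9 members are named, with test values where the adjusted p was under 0.05 or the unadjusted threshold was met, and Vegfb between TPMR1 and TPMCa beyond that rule. Up to 4 genes per list and comparison were to be named among those called, apart from epithelial genes, mostly given as sums. Figf, Epcam, Cdh1, Cdh5, Vwf, Slc2a1, Prox1, Lyve1, Reln, Mmrn1, Notch3, Ankrd37, Pfkfb4 and Bnip3 were named after their values were seen. For each member the 3 most correlated genes with a mean log2 CPM of at least 3 were named. Gene positions are from GENCODE M21 on GRCm38 and promoters from RefSeq, where all 9 members matched, with 11 promoters. Results on some engineered genes are not reported here.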

Additional observations from a re-analysis of the deposited data

How the results depend on the processing

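With 2 libraries per model, calls depended on single libraries and on the tool. For a difference among the 4 models, 1 member was called, against 2 with no filter on low counts, 8 with DESeq2, 0 with the replicate number as a block and 0 to 2 when 1 library was left out. For TPMCa against TPM, 0 were called, against 1 with library size alone, 5 with DESeq2, 2 with only the models compared and 0 to 2 when 1 library was left out. For TPMR1 against TPM, 0 were called, against 1 with library size alone, 4 with DESeq2 and 0 to 1 when 1 library was left out. For TPM set against the mean of TPMCa and TPMR1, 1 was called, against 2 with no filter, 6 with DESeq2, 0 with only the models compared and 0 to 3 when 1 library was left out. For TPK against that mean, 6 were called, against 3 with the replicate block, 2 with only the models compared and 0 to 7 when 1 library was left out. For TPMR1 against TPMCa the count was 0 to 1 when 1 library was left out, and for TPK against TPM it was 0 under every alternative run. The number of all genes called moved too, with DESeq2 from 553 to 2380 for TPMCa against TPM and from 886 to 2880 for TPMR1 against TPM. It moved from 1411 to 3094 for TPM against the mean and from 2287 to 4471 for TPK against the mean. For a difference among the 4 models it moved from 1162 to 4784. A model left with 1 library was assumed to vary like the others. Except where an alternative holds fewer samples or genes, the cause was not tested.

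The log2 fold changes of members with test values are those that had passed a threshold in the main fit, and the alternatives reuse the same counts. An unchanged direction was therefore likely from the start and is no separate support. The 25 changes kept their direction in all 375 values under the alternatives run. Of these, 42 lost and 29 gained a call. No receptor passed relative to endothelial genes under any alternative run, and the exact permutation p of the difference between Flt1 and Kdr stayed between 0.0571 and 0.391. Same-numbered replicates did not deviate together, with correlations between -0.07 and -0.008 across pairs of models, so no pairing by number was seen. With 2 libraries per model, whose differences can hide a shared part, this cannot exclude that the numbers pair the samples. Of the other genes named, the replicate block ended the calls of Src and Plxnd1 in TPMCa against TPM (adjusted p = 0.0623 and 0.0643 from edgeR), Nr5a1 in TPM against the mean (adjusted p = 0.0611 from edgeR) and Bad in TPK against the mean (adjusted p = 0.0531 from edgeR), and among members those of Vegfa, Vegfb and Pgf in TPK against the mean (adjusted p = 0.0553, 0.0608 and 0.0706 from edgeR) and of Nrp2 among the 4 models.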
